A study of Mus musculus with 6 samples.

Results

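Canonical Wnt feedback genes are followed here, with Notum at their head, in mouse embryonic stem (ES) cells that had lost Dicer (Dcr) acutely. The list holds 10 genes, Notum, Dkk1, Axin2, Nkd1, Rnf43, Znrf3, Lgr5, Sp5, Lef1 and Tcf7. They were selected on measured values of these same arrays, because Notum stood far higher after Dcr loss, so the members' differences are given as a description and without a test. A member's probe sets are those whose only gene symbol is that member's, and its value is the mean of their log2 values. In this way 9 of the 10 genes, with 17 probe sets, were measured among 18193 genes. Tcf7, a DNA-binding partner of beta-catenin, had no probe set among those used and was not analysed here.

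Dcr KO cells were Dicerflox/flox ES cells transfected with GFP and Cre recombinase, and Dcr WT cells were the same floxed line given GFP alone. RNA was taken on day 5 after transfection from cells grown on gelatin with LIF, and 3 arrays were hybridised for each group, which the methods call biological triplicates. The Dcr KO cells were a polyclonal population rather than 1 clone and could still hold undeleted cells. Since no group received Cre without floxed alleles, an effect of Cre cannot be told apart from that of the deletion.

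Wnt proteins are secreted signals that bind Frizzled and Lrp receptors at the cell surface and thereby spare beta-catenin from a destruction complex built on Axin and Apc. The beta-catenin that accumulates enters the nucleus and acts with Tcf and Lef proteins on target genes, several of which encode inhibitors that damp the same signal. In ES cells this pathway is known for helping self-renewal, and strong signalling is also known for driving cells toward primitive streak fates. Dicer cuts precursor hairpins into mature microRNAs, of which the miR-290 to miR-295 cluster is the best known in ES cells. Of that cluster, 3 mature sequences from RefSeq (GRCm38.p6) with one shared seed are shown because they are among the RNAs whose production the deletion removes, with the seed (bases 2 to 8) in capitals.
mmu-miR-291a-3p: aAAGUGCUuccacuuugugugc
mmu-miR-294-3p: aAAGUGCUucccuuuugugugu
mmu-miR-295-3p: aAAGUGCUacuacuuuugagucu
None of the 10 genes is on the study's candidate list of predicted targets of this cluster. By the paper, that list took only genes reading at least 16 on wild type arrays and higher after loss of Dicer and of the cluster. Notum, Dkk1, Nkd1, Rnf43, Lgr5 and Lef1 had linear Dcr WT means of 9.25, 6.32, 8.63, 5.5, 3.63 and 9.58, all under that minimum. Absence from the list therefore does not tell whether a gene is a predicted target. Whether any transcript of the 10 genes is bound by a microRNA was not tested.

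Promoter windows of 300 bases (250 before to 50 after a start site, RefSeq GRCm38.p6) were on hand for 7 of the 10 genes, in 12 windows, and were searched on both strands for the Tcf/Lef motif CTTTGAA, its variant CTTTGAT, and the other variants CTTTGTA as well as CTTTGTT. A match was found in 3 genes, Sp5, Dkk1 and Lef1, in 3 of the 12 windows, and 16.9% of the 32851 windows in the table held one. Windows of 3 genes are shown, each 5′ to 3′ along its gene and with matches in capitals, those of Sp5 and Dkk1 for their 2 matches each and that of Axin2 as the reporter gene of the pathway in which none of these letters occurred. A match on the opposite strand is printed as its reverse complement.
Sp5, chr2:70474673-70474972, plus strand: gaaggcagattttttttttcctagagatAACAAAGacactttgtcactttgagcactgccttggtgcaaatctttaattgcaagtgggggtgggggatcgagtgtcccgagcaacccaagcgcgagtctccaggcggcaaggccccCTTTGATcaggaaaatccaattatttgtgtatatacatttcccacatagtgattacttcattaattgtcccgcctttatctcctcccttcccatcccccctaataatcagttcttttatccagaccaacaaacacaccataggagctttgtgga
Dkk1, chr19:30549447-30549746, minus strand: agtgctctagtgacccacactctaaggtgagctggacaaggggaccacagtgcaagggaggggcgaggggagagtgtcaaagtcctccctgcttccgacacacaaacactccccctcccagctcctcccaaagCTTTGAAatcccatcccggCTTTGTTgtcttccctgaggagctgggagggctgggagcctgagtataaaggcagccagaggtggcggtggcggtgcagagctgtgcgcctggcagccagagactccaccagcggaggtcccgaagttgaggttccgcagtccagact
Axin2, chr11:108920099-108920398, plus strand: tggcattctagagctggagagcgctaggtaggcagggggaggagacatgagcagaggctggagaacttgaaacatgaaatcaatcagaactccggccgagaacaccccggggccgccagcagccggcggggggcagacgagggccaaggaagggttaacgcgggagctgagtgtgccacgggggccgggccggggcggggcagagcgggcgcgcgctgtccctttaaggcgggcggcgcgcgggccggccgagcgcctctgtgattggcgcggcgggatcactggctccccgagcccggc
In Sp5 the matches were CTTTGTT on the opposite strand at -222 to -216 and CTTTGAT at -104 to -98 from the start site. In Dkk1 they were CTTTGAA at -117 to -111 and CTTTGTT at -98 to -92, both on the strand of the gene. In Lef1 a single match, CTTTGTA on the opposite strand at -147 to -141, lay in 1 of 4 windows, that of a start site further downstream. The shorter core CTTTG was found in the same 3 genes, in 6 of the 12 windows, against 53.9% of all windows. A window without a match says only that these letters are not in that window, and a match is a description and not a binding site.

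Dicer1 itself, the floxed gene, read 6.32, 6.58 and 5.92 on the Dcr KO arrays, against 7.78, 7.89 and 7.16 on the Dcr WT arrays, on the log2 scale. Its difference, Dcr KO minus Dcr WT, was -1.33 (SE 0.23, limma, adjusted p = 0.0134 over the 8782 genes tested), which leaves 39.7% of the Dcr WT level. Its probe sets were both lower, by -1.84 and -0.82 (limma over probe sets, adjusted p = 0.0138 and 0.0908). Pairs of arrays correlated at 0.9865 to 0.9965 within Dcr KO, at 0.9881 to 0.9917 within Dcr WT and at 0.9624 to 0.9842 across groups, over tested genes. The ES cell markers were all 9 above the minimum defined below, with a mean log2 level of 10.91 in Dcr KO and 10.80 in Dcr WT cells. Of them 0 passed the limma test, while 4 had an unadjusted p under 0.05. These 4 were Pou5f1, Sox2 and Zfp42, higher by 0.38, 0.33 and 0.29, and Tdgf1, with a difference of -0.34. The 8 primitive endoderm markers were all under the minimum, and 1 neural marker, Tubb3, the neuronal tubulin, was higher by 0.73 (SE 0.11, limma, adjusted p = 0.01). The mean log2 value of the 8 neural markers on each array was 4.33 to 4.37 in Dcr KO and 3.99 to 4.06 in Dcr WT cells. Of the 8, 5 were under the minimum, and the part of these markers in the results below was not tested. For the 8 fibroblast markers, 7 of them under the minimum, the mean was 2.84 to 3.03 in Dcr KO and 2.65 to 2.93 in Dcr WT cells.

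Levels are log2 expression values of the arrays, and a minimum of 16 on the linear scale, 4 on the log2 scale, as a mean over all 6 arrays separated probe sets or genes with a measurable level from dim ones. Of the 17 probe sets of the members, 5 passed this minimum (1 each of Notum, Axin2, Znrf3, Sp5 and Lef1), and the other 12 had means of 1.64 to 3.38. Array medians over all probe sets, expressed or not, were 2.96 to 3.01, so that the dim probe sets lay around or under the median probe set. Taken as genes, 4 members passed the minimum and 5 did not, with Lef1 under it because its bright and dim probe sets are averaged. Since a gene can pass through 1 group alone, as Notum did, the members that passed are not a fair sample of the list.

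**Figure D1:**
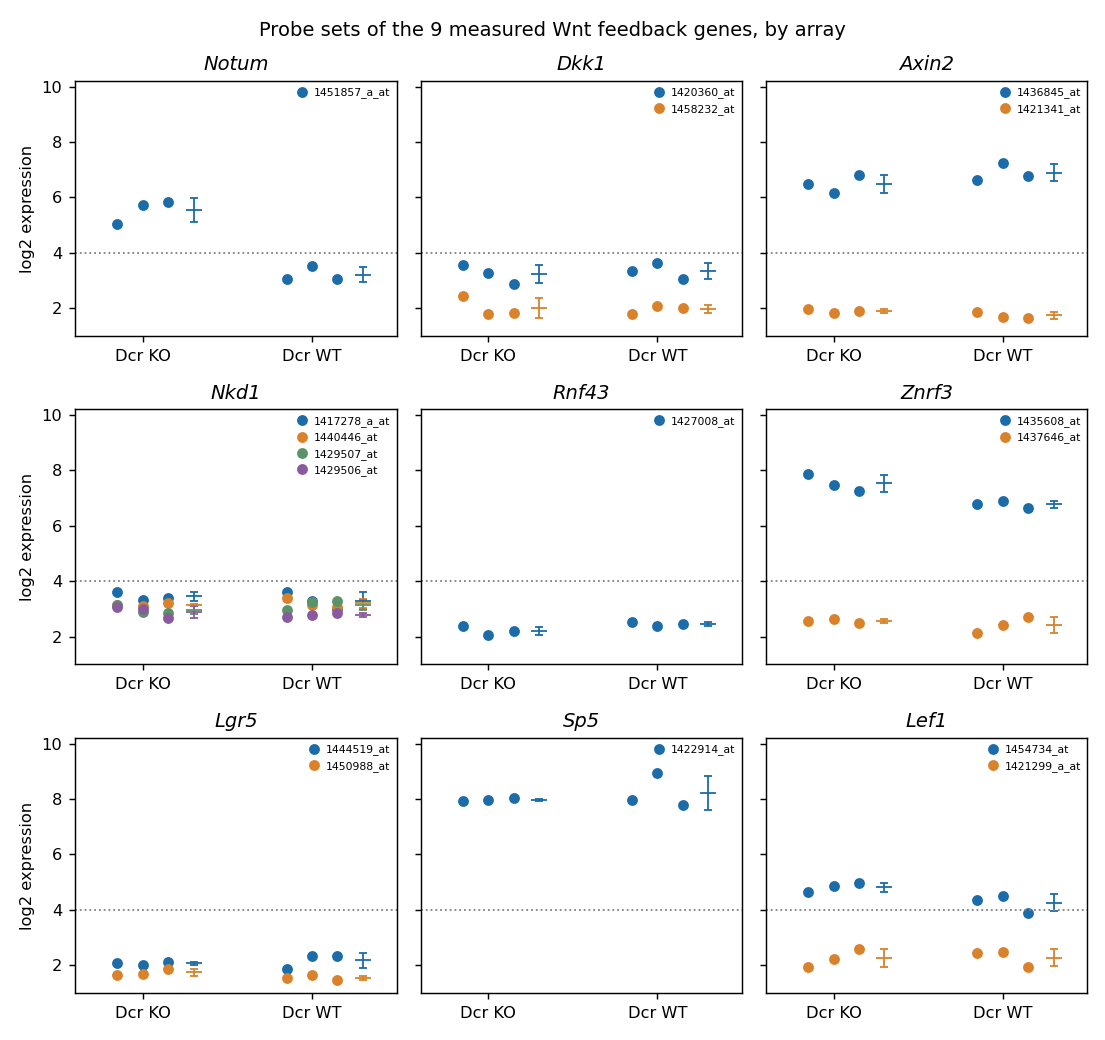
Log2 expression of each of the 17 probe sets of the 9 measured genes on the 3 Dcr KO and 3 Dcr WT arrays (points, arrays 1 to 3 from left to right within each group), with the mean and SD beside them and the minimum of 4 as a dotted line. Notum crosses the minimum only in Dcr KO cells, Sp5 has 1 high Dcr WT array at 8.93, and the 12 dim probe sets stay under the line.

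Among the secreted inhibitors, Notum stood apart. Notum is an extracellular carboxylesterase that removes the palmitoleate group from Wnt proteins and so inactivates them. Its single probe set read 5.05, 5.72 and 5.85 on the Dcr KO arrays, against 3.05, 3.53 and 3.05 on the Dcr WT arrays, on the log2 scale. Every Dcr KO array was above every Dcr WT array, with 1.52 log2 units between the lowest Dcr KO and the highest Dcr WT value. On the linear scale these were 33.1, 52.7 and 57.7 in Dcr KO cells and 8.28, 11.6 and 8.28 in Dcr WT cells, so that all Dcr WT arrays were under the minimum of 16. The means were 5.54 ± 0.43 in Dcr KO and 3.21 ± 0.28 in Dcr WT cells (SD, n = 3 each), a log2 difference of 2.33 (SE 0.30) or 5.03-fold. Because the Dcr WT level lies where the array no longer measures well, the fold is better read as a bound, and with the minimum in place of the Dcr WT level it was at least 2.91-fold (1.54 on the log2 scale). The difference stayed between 2.17 and 2.58 with any 1 array left out. In a mixed population, more transcript per cell and more cells with the transcript cannot be told apart.

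Dkk1, a secreted antagonist that ties up the Lrp co-receptors, was dim in both groups. It read 3.00, 2.53 and 2.37 in Dcr KO cells, against 2.57, 2.86 and 2.54 in Dcr WT cells, and the groups overlapped. The log2 difference was -0.02 (SE 0.21). Neither of its probe sets reached the minimum on any array, the highest single value being 3.62 on a Dcr WT array, so a difference in Dkk1 was not measurable with these probe sets.

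Of the cytoplasmic inhibitors, Axin2, the scaffold of the destruction complex that is induced by the signal it restrains, had a bright and a dim probe set. The bright one, read 6.48, 6.17 and 6.81 in Dcr KO cells, against 6.64, 7.23 and 6.78 in Dcr WT cells. The groups overlapped, since the highest Dcr KO array was above 2 of the 3 Dcr WT arrays, and Dcr WT array 2 was the highest of the 6. Its difference was -0.40 (SE 0.26), and -0.22 without Dcr WT array 2. The dim probe set, lay between 1.65 and 1.96 on the 6 arrays, and with it averaged in the Axin2 gene value differed by -0.12 (SE 0.13). Notum and Axin2 are both reported as targets of the pathway. The groups did not overlap in Notum, for whose rise the list was chosen, and overlapped in Axin2. Whether the 2 genes differ in their response was not tested.

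Nkd1, which binds Dishevelled and weakens the signal, was covered by 4 probe sets, and all of them were under the minimum. As a gene it read 3.24, 3.09 and 3.03 in Dcr KO cells and 3.17, 3.11 and 3.06 in Dcr WT cells, a difference of 0.01 (SE 0.07) with overlapping groups. Its probe sets differed by between -0.19 and 0.15, and each of them overlapped between the groups.

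The next members act on the receptors. Rnf43 and Znrf3 are membrane ubiquitin ligases that send Frizzled receptors for degradation, and Lgr5 is a receptor for the R-spondins, which hold those ligases back. The bright probe set of Znrf3, read 7.86, 7.49 and 7.25 in Dcr KO cells, against 6.78, 6.91 and 6.63 in Dcr WT cells. All Dcr KO arrays were above all Dcr WT arrays, with a gap of 0.34, and the difference was 0.76 (SE 0.19), or 1.69-fold. It ranged from 0.60 to 0.90 with 1 array left out. The dim probe set, overlapped between the groups at 2.48 to 2.64 in Dcr KO and 2.14 to 2.70 in Dcr WT cells. As a gene value the difference was 0.45 (SE 0.12), or 1.36-fold.

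Rnf43, the paralogue of Znrf3, was read by 1 dim probe set at 2.37, 2.06 and 2.19 in Dcr KO cells and 2.52, 2.40 and 2.47 in Dcr WT cells. The Dcr KO arrays were all lower, but by a gap of only 0.03 and far under the minimum, and the difference was -0.26 (SE 0.10). Lgr5 was dim as well, at 1.86, 1.84 and 2.00 in Dcr KO and 1.70, 1.98 and 1.90 in Dcr WT cells, with overlapping groups and a difference of 0.04 (SE 0.10). Its probe sets differed in opposite directions, -0.11 and 0.20, and the second, at 1.66, 1.68 and 1.87 in Dcr KO and 1.53, 1.63 and 1.46 in Dcr WT cells, did not overlap.

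Of the transcription factors, Sp5, a zinc finger protein known as a direct target of beta-catenin that limits the expression of other targets, was well above the minimum in both groups. It read 7.93, 7.95 and 8.02 in Dcr KO cells, against 7.97, 8.93 and 7.77 in Dcr WT cells. The Dcr KO arrays lay close together, while Dcr WT array 2 stood apart, with a linear value of 488 beside 251 and 218 on Dcr WT arrays 1 and 3. The means were 7.97 ± 0.05 in Dcr KO and 8.22 ± 0.62 in Dcr WT cells (SD, n = 3 each), a difference of -0.26 (SE 0.36) with overlapping groups. Without Dcr WT array 2 the difference turned to 0.10, so its direction rested on that array.

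Lef1, which binds DNA together with beta-catenin, had a bright probe set, at 4.64, 4.85 and 4.96 in Dcr KO cells, against 4.36, 4.51 and 3.90 in Dcr WT cells. The Dcr KO arrays were all higher, with a gap of 0.13 and a difference of 0.56 (SE 0.21), or 1.47-fold. The dim probe set, overlapped and differed by -0.02 (SE 0.26). The gene value overlapped as well, with a difference of 0.27 (SE 0.23).

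**Figure D2:**
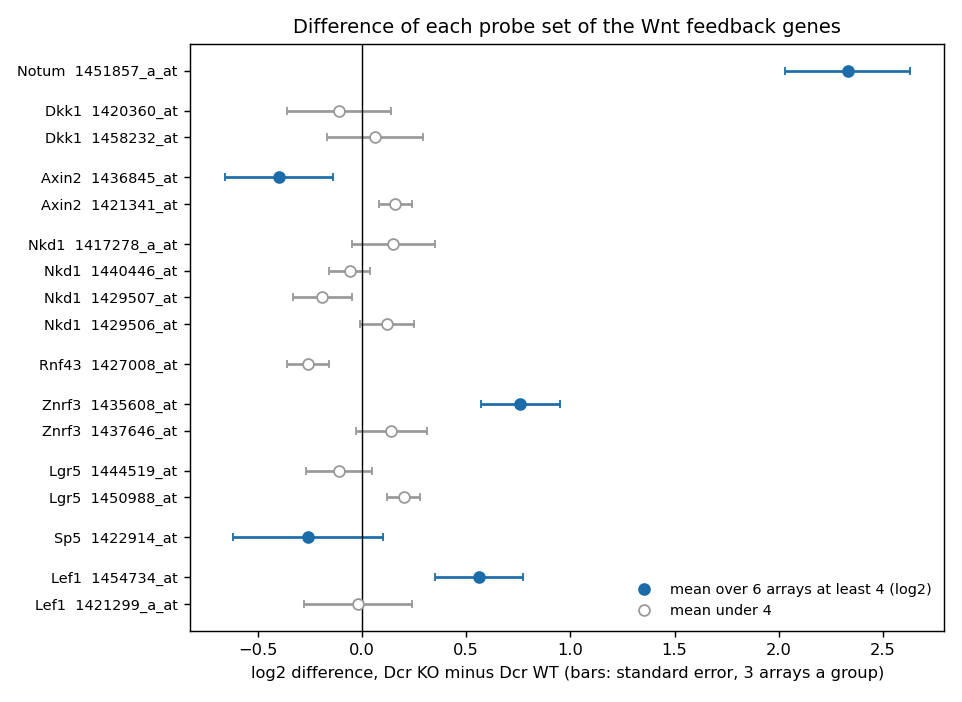
Dcr KO minus Dcr WT log2 difference and standard error for every probe set of the members (3 arrays a group), by member in the order of their roles, filled where the probe set passed the minimum. Notum lies at 2.33, the bright probe sets of Znrf3 and Lef1 at 0.76 and 0.56, and those of Sp5 and Axin2 at -0.26 and -0.40.

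Over the 9 measured members, 5 had a higher and 4 a lower mean in Dcr KO cells, and the median difference was 0.01, beside -0.02 over all 18193 genes. Every Dcr KO array was above every Dcr WT array for 2 members, Notum and Znrf3, where 13.3% of all genes had this order. The reverse order was found for 1 member, Rnf43, beside 15.4% of all genes, and for 2 without Dcr KO array 1, when Dkk1 joined it. Without that array the members higher throughout were 3, with Lef1 added. The other 6 overlapped. By probe set, 4 of 17 were higher without overlap, 1 lower and 12 overlapping. The 13.3% and 15.4% are shares of gene values, and the shares over all probe sets were not counted. Nothing is read from these counts, since the list was made with this contrast in view. After Notum at 2.33 the next highest gene value was that of Znrf3 at 0.45.

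The Dcr WT arrays were not alike for these genes, a pattern noticed after the values were seen. Dcr WT array 2 was the highest of the 3 Dcr WT arrays for 7 of the 9 members and for all 5 probe sets above the minimum, and array 1 was the highest for the other 2 members. Over all measured genes that array was the highest in 37.5%. The mean of the 8 measured primitive streak and mesoderm markers, 6 of them under the minimum, was 3.02, 3.20 and 3.28 on the Dcr KO arrays and 3.04, 3.39 and 2.86 on the Dcr WT arrays, so that Dcr WT array 2 was again the highest. The 7 trophectoderm markers, 3 of them under the minimum, averaged 6.67 to 6.78 on the Dcr KO arrays, against 6.26, 6.68 and 6.42 on the Dcr WT arrays. That average spans unlike levels, from Elf5 at 1.74 to Krt18 at 13.46 in Dcr KO cells. The part of these markers in the member values was not tested.

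**Figure D3:**
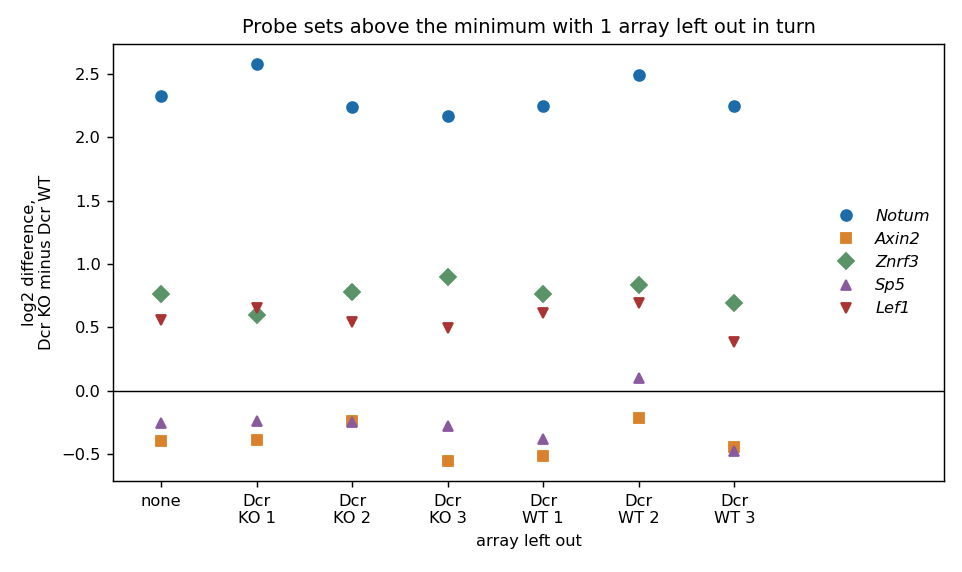
Dcr KO minus Dcr WT log2 difference for the 5 probe sets above the minimum with all arrays (left) and with each array left out in turn. Notum stays between 2.17 and 2.58, and Sp5 is the only one of the 5 to change sign, at 0.10 without Dcr WT array 2.

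To place Notum among other transcripts, the tested genes were ordered by how close their profile over the 6 arrays, each minus its Dcr WT mean, came to that of Notum (root mean square difference in log2 units). The nearest 5 were Accsl at 0.19, Ccn4 at 0.21, Col11a1 at 0.25, Lcor at 0.26 and Calcoco2 at 0.31. Accsl, which resembles an enzyme class known from plant hormone synthesis, read 5.56, 5.91 and 5.93 in Dcr KO cells, against 3.35, 3.74 and 3.63 in Dcr WT cells. Ccn4, a secreted matricellular protein first described as a Wnt-induced gene, read 8.52, 8.70 and 9.18 in Dcr KO cells, against 6.58, 6.97 and 6.50 in Dcr WT cells. Like Notum, 4 of the 5 genes (all but Col11a1) had their lowest Dcr KO value on array 1 and their highest on array 3. The 5 genes were picked for their likeness to Notum on these same arrays, so nothing is read from that shared order. Col11a1 (a fibrillar collagen chain), Lcor (a nuclear receptor corepressor) and Calcoco2 (an autophagy receptor) differed by 2.39, 2.12 and 2.03, and likeness over 6 arrays of 2 groups says mainly that the sizes of the differences were alike.

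**Figure D4:**
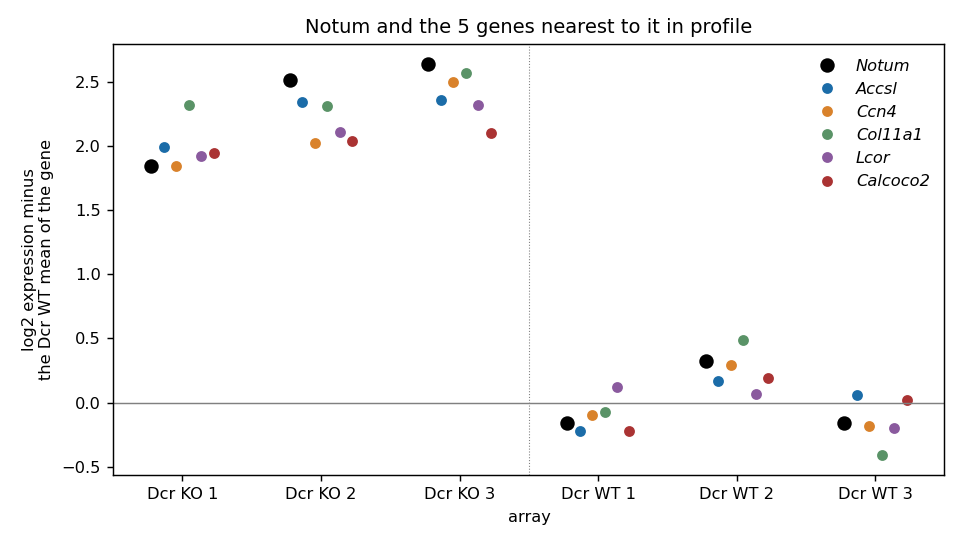
Log2 expression of Notum and of the 5 tested genes nearest to it, each minus its own Dcr WT mean, on the 3 Dcr KO arrays (left) and the 3 Dcr WT arrays (right). All 6 genes lie well above their Dcr WT mean on every Dcr KO array, with differences of 2.03 to 2.39.

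The rest of the pathway was examined for the steps that lie before and beside the feedback genes, with 116 listed genes of which 112 were measured and 54 passed the minimum. Of these 54, limma called 7 higher and 1 lower at an adjusted p under 0.05, beside 6.91% of all 8782 tested genes called higher and 6.42% called lower, and the median difference was 0.01 beside -0.02 over all tested genes. An unadjusted limma p under 0.05 was found for 16 of the 54, and its share over all tested genes was not counted. By list these were 4 of 7 ligand genes, 0 of 9 receptor genes and 1 of 14 relay genes. The others were 1 of 11 nuclear partners, 3 of 3 other antagonists and 7 of 10 other reported targets. These lists too were chosen with earlier results of these data known. Nothing is therefore read from their counts of calls or of unadjusted p, here or list by list below. The number of all tested genes called depended on each array, as 220 to 465 were higher with 1 array left out, against 607 with all, and 137 to 376 lower, against 564. The higher calls were fewest without Dcr KO array 2 (220), Dcr WT array 3 (284) and Dcr KO array 3 (384). The lower calls were 137 without Dcr KO array 2, 155 without Dcr WT array 3, 283 without Dcr WT array 2, 299 without Dcr KO array 3 and 363 without Dcr WT array 1.

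Among ligands and the proteins that release them, 3 of 7 tested genes rose. Porcn, the acyltransferase that attaches the lipid which Notum takes off, read 7.67, 7.74 and 7.36 in Dcr KO cells, against 6.20, 6.58 and 6.42 in Dcr WT cells. It rose by 1.19 (SE 0.14, limma, adjusted p = 0.00446). Wls, the carrier that takes lipid-bearing Wnt proteins to the cell surface, read 7.22, 7.35 and 7.60 in Dcr KO cells, against 6.57, 6.49 and 6.60 in Dcr WT cells, and rose by 0.84 (SE 0.12, limma, adjusted p = 0.0081). Neither gene overlapped between the groups, and both kept their call with any 1 array left out, at limma adjusted p of at most 0.0248 for Porcn and 0.0347 for Wls. Wls, unlike Porcn, is on the study's candidate list, which was drawn up on these same arrays. The ligand Wnt6 read 6.38, 5.95 and 6.38 in Dcr KO cells, against 5.01, 5.67 and 4.86 in Dcr WT cells, and rose by 1.06 (SE 0.22, limma, adjusted p = 0.0238). That call was lost without Dcr KO array 1 or 3 or Dcr WT array 1 or 3, with limma adjusted p of 0.0585, 0.0626, 0.0668 and 0.0835. The other 4 tested ligands differed by -0.57 to 0.48, and 14 of the 21 genes were under the minimum.

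Receptors and the cytoplasmic relay held 0 called genes. The 9 receptors and co-receptors above the minimum, with Fzd2, Fzd5, Fzd6, Fzd7 and Lrp6 among them, differed by -0.09 to 0.22, and 0 had an unadjusted limma p under 0.05. The 13 receptors and R-spondins under the minimum were not tested and differed by -0.92 (Rspo1) to 0.69 (Ror1). Rspo1 averaged 3.27 in Dcr KO and 4.19 in Dcr WT cells, without overlap. The 14 relay and destruction complex genes, among them Apc, Axin1, Gsk3b and Ctnnb1 (beta-catenin itself), differed by -0.32 to 0.28, and 1 had an unadjusted p under 0.05. Of 11 tested nuclear partners of beta-catenin, 1 fell, Ctnnbip1, a small protein that keeps beta-catenin from binding Tcf factors. It read 5.90, 5.46 and 5.58 in Dcr KO cells, against 6.70, 6.94 and 6.78 in Dcr WT cells, a difference of -1.16 (SE 0.14, limma, adjusted p = 0.00397). The groups were 0.80 apart, and the call held with any 1 array left out (highest limma adjusted p 0.023).

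Of 3 tested genes among the other antagonists, Sfrp1, a secreted Frizzled-like decoy for Wnt proteins, read 7.08, 6.98 and 6.91 in Dcr KO cells, against 6.46, 6.24 and 6.36 in Dcr WT cells, and rose by 0.63 (SE 0.11, limma, adjusted p = 0.0117). Its call was lost without Dcr KO array 2 (limma adjusted p = 0.0507) and on its brightest probe set alone (0.48, limma adjusted p = 0.0748). Its relative Sfrp2 had a difference of -0.53 and did not pass (limma, adjusted p = 0.0752).

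Among 10 tested genes that have been reported as Wnt targets in other settings, 3 rose. Ccn4, with the values given above, rose by 2.12 (SE 0.19, limma, adjusted p = 0.00183) and is on the study's candidate list. Gbx2, a homeobox factor that helps keep ES cells undifferentiated, read 7.58, 7.74 and 8.12 in Dcr KO cells, against 6.96, 6.95 and 7.08 in Dcr WT cells, and rose by 0.82 (SE 0.15, limma, adjusted p = 0.0151). Sp8, the relative of Sp5, read 4.69, 4.43 and 4.80 in Dcr KO cells, against 3.45, 3.96 and 2.95 in Dcr WT cells, and rose by 1.19 (SE 0.24, limma, adjusted p = 0.0213). Like Notum it was under the minimum on the Dcr WT arrays and passed only through its Dcr KO level, it was tested in 3 of the 6 fits with 1 array left out, and its call was lost without Dcr WT array 1 (limma, adjusted p = 0.0551). The remaining 7 differed by -0.64 to 0.48, and Mixl1 and Ephb3, at -0.64 and -0.63, did not pass (limma, adjusted p = 0.109 and 0.0656). Of the fits with 1 array left out, both passed in the one without Dcr WT array 3, which brought the genes called lower on all pathway lists to 3. The 11 listed targets under the minimum were not tested and differed by -1.30 (Cdx4) to 0.68 (Nrcam). Reported targets thus had values on both sides of their Dcr WT means, and the median difference of the 10 tested was 0.43. Over all tested genes the median was -0.02, and nothing is read from this, since the list was chosen with earlier results known.

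**Figure D5:**
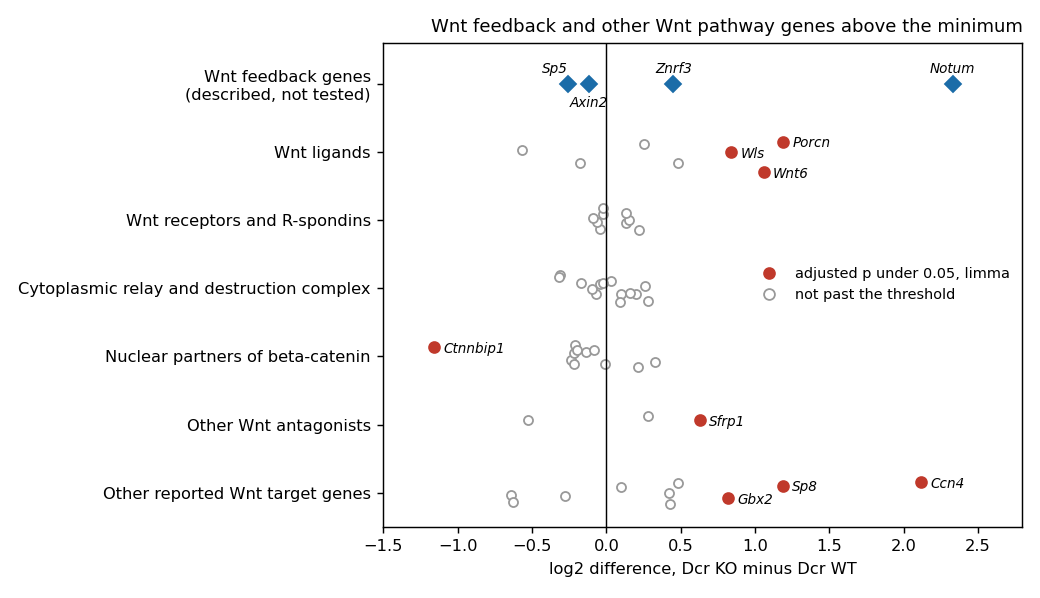
Dcr KO minus Dcr WT log2 difference for the 4 members whose gene value passed the minimum (diamonds, not tested) and of the 54 tested genes of the other pathway lists (circles, red where the limma adjusted p was under 0.05). The 7 genes that rose lie at 0.63 to 2.12, Ctnnbip1 at -1.16, and receptors and relay genes within 0.32 of 0.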

How the data were processed

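Total RNA of 3 Dcr KO and 3 Dcr WT cultures was hybridised to Affymetrix mouse arrays. Values for 45037 probe sets were deposited on the log2 scale, made with GCRMA 2.20.0 under R 2.11.1 according to the submitters' processing notes. The sources used here do not give whether other arrays were normalized jointly with these, and 0 array columns were left unused. GCRMA's background model bears most on dim probe sets, and the number of arrays limits the precision. By the platform annotation 34945 probe sets had 1 symbol, 932 several and 9160 none, and the last 2 kinds were left out. Gene values (mean log2 of the probe sets) entered limma 3.58.1 under R 4.3.3 (functions lmFit, then eBayes), restricted to the 8782 genes averaging 16 or more, linear, over the 6 arrays, with Benjamini-Hochberg adjustment over all of them, after a trial on simulated data. SE beside a member is that of the difference of 2 means, and beside a tested gene that of the fit. Promoter windows and microRNAs came from RefSeq GRCm38.p6. Members and pathway lists were chosen with earlier results of these data known. Named were all members, Dicer1, called pathway genes (at most 5 per direction and list), the 5 genes nearest to Notum and any called marker. Other genes named beside them were chosen after their values were seen. Alternatives were the filter on low values, the brightest probe set, quantile normalization, a trend in eBayes, the replicate number as a block and leaving out each array. Raising values under the minimum to it was added after seeing the data.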

Additional observations from a re-analysis of the deposited data

How the results depend on the processing

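Of 117 member differences recomputed under alternatives, 111 moved by less than 1 SD between replicates. This count includes values that could not move. The filter settings, the trend in eBayes and the replicate block leave the group means of a member as they are. So does the brightest probe set for members with a single one. The exceptions were Notum at 1.54 and Rnf43 at 0 with values under the minimum raised to it, and, with the brightest probe set alone, Axin2 at -0.40, Nkd1 at 0.15, Znrf3 at 0.76 and Lgr5 at -0.11. Members wholly lower in Dcr KO cells were 1, with 0 after raising values to the minimum and 1 to 2 with 1 array left out. Members wholly higher were 2, with 3 on the brightest probe set and 2 to 3 with 1 array left out. The 8 called pathway genes kept their call in 91 of 100 recomputed values and none reversed. Pathway genes called higher numbered 7, and 9 without the filter, 10 with the brightest probe set, 6 with the minimum set on Dcr WT arrays, 5 with the replicate block and 5 to 7 with 1 array left out. Those called lower numbered 1, and 3 without the filter, 2 with the minimum set on Dcr WT arrays, 3 with the brightest probe set (Csnk1d and Csnk1e joining) and 1 to 3 with 1 array left out. Same-numbered Dcr KO and Dcr WT arrays did not deviate together (r = -0.22, -0.02 and 0.03), and no array correlated best with its own number, so the numbers were not taken as pairs. With the replicate block 354 genes were called higher and 243 lower over all genes, and 2 pathway genes lower, while the calls of Wnt6 (limma, adjusted p = 0.0622) and Sp8 (0.0507) were lost. With 1 array left out, 220 to 465 genes were called higher and 137 to 376 lower, from fewer samples. Probe sets under the minimum limit what can be said of Dkk1, Nkd1, Rnf43 and Lgr5. Groups of 3 arrays were too small for a test of single outlying arrays.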
